A study of Mus musculus with 24 samples.

Results

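The genes described are 33 mouse genes of macrophages and of myeloid cells in general, out of 46078 genes in a count table of injured and uninjured hearts. They were chosen by symbol from a written list: 32 were found under their symbol in the table, and Cyba, whose row carries no symbol, was found under its Ensembl identifier (ENSMUSG00000006519). All 33 had at least 1 read in every library, and all 33 were among the 15456 genes that had over 0.5 CPM (counts scaled to library size, with TMM factors between libraries) in at least 6 libraries and were tested. They fell into surface receptors of macrophages (6 genes), Fc receptors and their adaptors (5), the chains of an adhesion integrin (2), the chains of complement C1q (3), the phagocyte oxidase (5), lysosomal proteins (3), actin-binding and signalling proteins of blood cells (4), surface proteins of white cells in general (4) and 1 transcription factor.

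Macrophages are phagocytes that live in every tissue, the heart included, and are joined after injury by monocytes from the blood. They bind debris and antibody-coated particles through scavenger, Fc and complement receptors, kill with an oxidase that makes superoxide, and digest what they take up in lysosomes. Many of the genes for these functions are switched on by the transcription factor PU.1, the product of Spi1, and several are shared with neutrophils, dendritic cells or all white cells, so a rise of a single gene does not name 1 cell type.

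Polyadenylated RNA from the flash-frozen apex of the ventricles of 24 male C57BL/6 mice, aged 10 weeks, was sequenced at day 5, with 6 animals per group. DTR_PYR animals had diphtheria toxin injury and pyridostigmine, an inhibitor of cholinesterase, and DTR_PBS animals had the same injury and the vehicle PBS. WT_PYR animals were wild type and had pyridostigmine without toxin, and WT_PBS animals were wild type and had PBS without toxin. DTR is usually short for diphtheria toxin receptor. The sources used here do not say which cells carried it, nor the dose or route of the toxin and the drug. Since the wild-type groups had no toxin, the effects of genotype and of toxin cannot be told apart. Libraries held 1877914 to 37842245 counted reads, and the 33 genes took 0.0390% to 0.576% of them. Whole apex was sequenced, so a change in the number of cells of a type and a change in RNA per cell cannot be told apart.

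Replicates 4, 5 and 6 of DTR_PYR stood apart from the other 3 hearts with that label. For 31 of the 33 genes they were the 3 lowest of the group, and Aif1 and Cd53 were the exceptions. Their summed level over the 33 genes was 635, 667 and 705 CPM, against 2197, 4473 and 1517 CPM in DTR_PYR replicates 1, 2 and 3. The 6 WT_PYR hearts lay between 424 and 750.5 CPM, so the low DTR_PYR hearts fell within the range of uninjured hearts. DTR_PYR 1, 2 and 3 were above all WT_PYR hearts in all 33 genes, while DTR_PYR 4, 5 and 6 were above them in 9, 13 and 15 genes. No share of all genes stands beside these counts or the 31 of 33, so they describe the 33 genes alone. Hbegf, the growth factor gene whose human form is the receptor of the toxin, moved in the same way, with 19.3, 23.3 and 25.8 CPM in these 3 hearts, 118 to 172 CPM in the other 3, 105 to 167 CPM in DTR_PBS and 19.8 to 25.8 CPM in WT_PYR. For Hbegf the 3 hearts were thus near the WT_PYR level and below the other DTR hearts. Whether reads of Hbegf report the receptor was not tested. Myl2, a ventricular myosin light chain, was not near the WT_PYR level. It was at 3333, 3214 and 2795 CPM in DTR_PYR 4, 5 and 6, below the 6854 to 9610 CPM of WT_PYR. Reads of mitochondrially encoded genes made up 14.6%, 17.9% and 12.7% of these 3 libraries, against 4.59% to 6.03% of DTR_PYR 1 to 3 and 9.08% to 12.6% of WT_PYR. The animal tags of the 3 low hearts all end in V, a letter that the sources used here do not explain. Each DTR group had 2 U and 4 V tags and each WT group 4 U and 2 V. Whether these 3 hearts carried the receptor and had the injury as labelled was not tested. They are kept under their label, and values without them stand beside the comparisons of DTR_PYR.

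**Figure D1:**
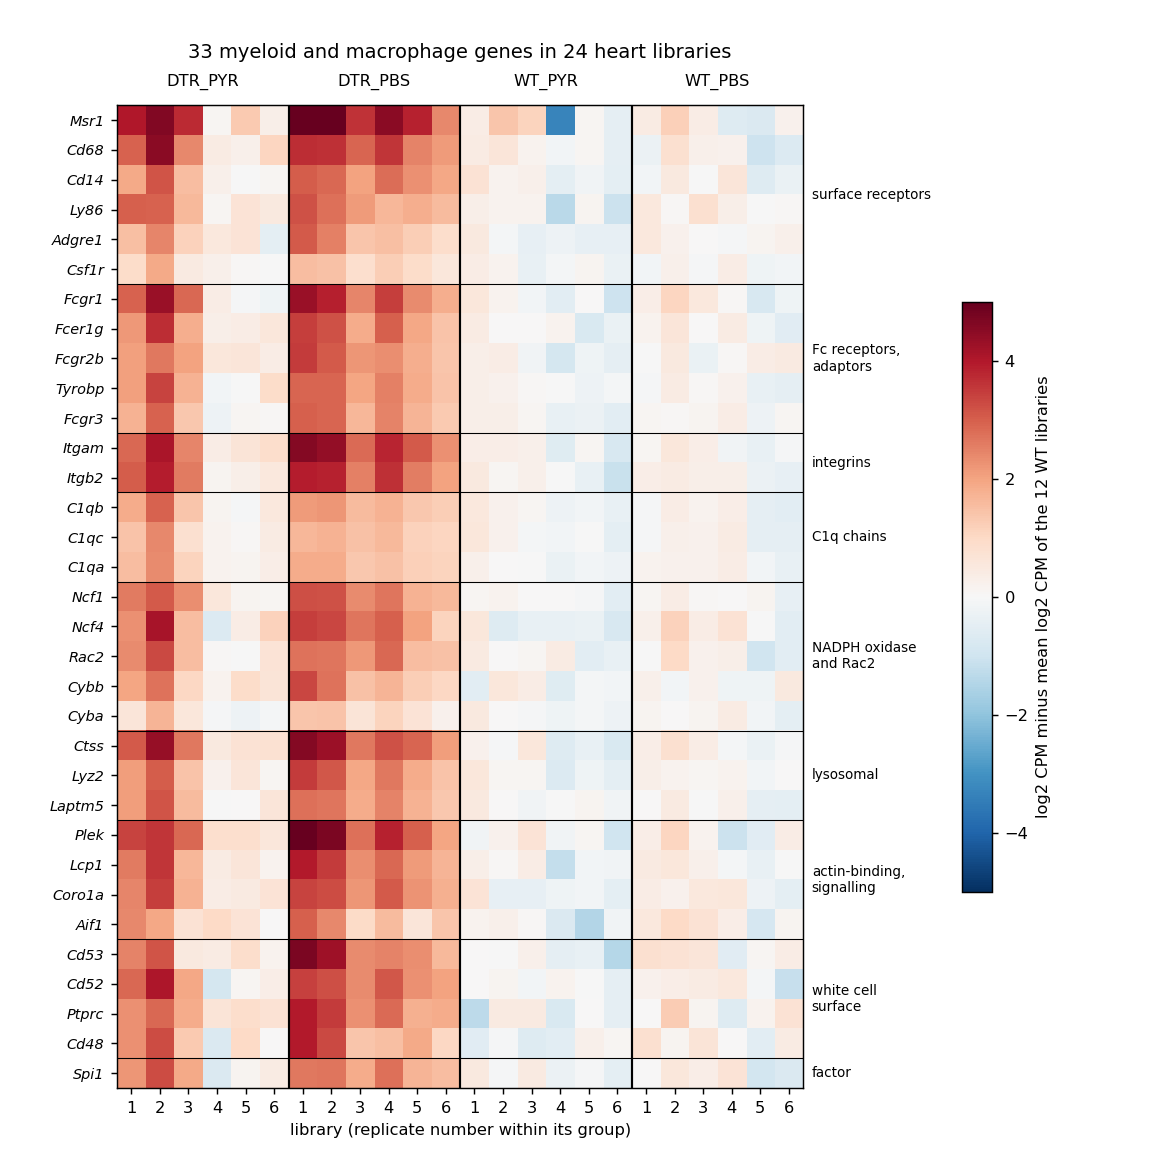
Level of each of the 33 genes (rows, ordered by role) in each of the 24 libraries (columns, replicate numbers within groups), as log2 CPM minus the mean log2 CPM of the 12 WT libraries, with a colour scale that saturates at a log2 difference of 5 either way. DTR_PBS hearts and DTR_PYR 1 to 3 are high across the rows, and DTR_PYR 4 to 6 are close to the WT libraries.

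The first comparison, DTR_PBS against WT_PBS, shows the genes in injured hearts without the drug. All 33 rose, where 21.3% of all genes tested rose and 42.9% changed in either direction. The median log2 change was 2.45 for the 33 genes and 0.01 for all genes, and 26 of the 33 rose by a log2 change of at least 2, which 5.62% of all genes did. In 30 of the 33 every DTR_PBS library was above every WT_PBS library, as in 11.2% of all genes, and the exceptions were Ncf4, Aif1 and Cyba. The largest adjusted p among the 33 was 0.00616, for Cyba (edgeR). The summed level was 2708 ± 1238 CPM in DTR_PBS and 592 ± 103 CPM in WT_PBS (mean ± SD, n = 6 each), and the lowest DTR_PBS heart, at 1385 CPM, was above the highest WT_PBS heart, at 711 CPM.

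Spi1 encodes PU.1, the transcription factor that myeloid cells need to form (ENSMUSG00000002111, GRCm38, chr2:91082390-91115756). It had a lowest, median and highest level of 23.2, 39.9 and 54.5 CPM in DTR_PBS, against 4.28, 9.14 and 13 CPM in WT_PBS. The groups did not overlap, and the log2 change was 2.17 ± 0.46 (SE, adjusted p = 0.000567). PU.1 binds DNA around a GGAA core, and GAGGAA is a common form of its site. In the 250 bases before the start of transcription, GAGGAA on either strand was found in 12 of the 22 genes whose promoter was in the RefSeq table used (54.5%), against 26.4% of 10835 tested genes with a promoter there and 25.9% of all 27025 genes. Within 100 bases of the start it was in 8 of the 22 (36.4%), against 11.2% of tested genes. The 11 genes without an entry are Adgre1, C1qa, Cd14, Cd52, Csf1r, Itgb2, Msr1, Ncf4, Rac2, Spi1 and Tyrobp. Of the longer form GAGGAAGT, which contains GAGGAA, there was 1 match, in C1qc (4.55% of the 22, against 3.02% of tested genes), and of the C/EBP-type motif TTGCNNCAA 1 match, in Cybb (4.55%, against 1.5%). The following stretches, from RefSeq on build GRCm38.p6 and written 5′ to 3′ on the strand of the gene, show the match nearest to the start in genes of 5 different roles, with GAGGAA or its complement TTCCTC in capitals.
Itgam (chr7:128062601-128062639, plus strand): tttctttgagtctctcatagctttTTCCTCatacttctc
Fcgr1 (chr3:96293995-96294048, minus strand): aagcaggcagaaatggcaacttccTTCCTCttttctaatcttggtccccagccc
Plek (chr11:17008750-17008803, minus strand): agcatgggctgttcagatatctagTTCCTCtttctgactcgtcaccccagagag
Laptm5 (chr4:130913254-130913307, plus strand): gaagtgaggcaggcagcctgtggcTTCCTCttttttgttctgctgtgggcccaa
Cd53 (chr3:106790159-106790212, minus strand): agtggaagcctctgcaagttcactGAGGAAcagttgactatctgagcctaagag
The matches end 10, 50, 56, 33 and 34 bases before the start in this order. A match of letters is not evidence of binding, and no binding was measured.

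Among the surface receptors, the change ranged from the smallest but one of all 33 genes to the largest. Msr1 encodes a scavenger receptor for modified lipoproteins and debris (ENSMUSG00000025044, chr8:39581700-39642678). It had 7.61, 26.6 and 90.6 CPM (lowest, median, highest) in DTR_PBS, against 0.857, 1.74 and 3.26 CPM in WT_PBS, a log2 change of 4.58 ± 0.73 (adjusted p = 5.05e-05). Even the lowest injured heart was above the highest uninjured one. Csf1r encodes the receptor of the growth factors CSF1 and interleukin 34, on which macrophages depend to survive (ENSMUSG00000024621, chr18:61105572-61132149). Its levels were 95.8, 137 and 187 CPM in DTR_PBS, against 55.7, 60.1 and 83.3 CPM in WT_PBS, a log2 change of 1.11 ± 0.25 (adjusted p = 0.00103). The groups did not overlap here either, but the rise was the smallest of the 6 receptors, and 873 exon bases of Csf1r overlap Hmgxb3 on the other strand, which the unstranded counts cannot separate. Between these lay Cd68, a glycoprotein of late endosomes used as a macrophage marker (log2 change 3.20), Cd14, the co-receptor for lipopolysaccharide (2.5), Ly86, the partner of the receptor Cd180 (2.02), and Adgre1, the F4/80 antigen of mouse macrophages (1.80).

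The Fc receptor genes rose together. Fcgr1, the high-affinity receptor for IgG, had 10.4, 24.8 and 59.4 CPM (lowest, median, highest) in DTR_PBS, against 1.71, 3.45 and 6.25 CPM in WT_PBS, a log2 change of 3.08 ± 0.61 (adjusted p = 0.000325). Fcgr3, an activating receptor of low affinity, had 23.6, 42.5 and 75.9 CPM in DTR_PBS, against 8.14, 10.3 and 12.4 CPM in WT_PBS, a log2 change of 2.21 ± 0.41 (adjusted p = 0.000162). Both were free of overlap. Fcgr2b, the inhibitory receptor that is also found on B cells, rose by 2.40, the shared signalling chain Fcer1g by 2.56 and the adaptor Tyrobp (DAP12) by 2.37 on the log2 scale.

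Itgam and Itgb2 encode the alpha and beta chain of complement receptor 3 (Mac-1), with which myeloid cells adhere and take up particles coated with complement. Itgam (ENSMUSG00000030786, chr7:128062640-128128160) had 36.0, 83.1 and 177 CPM in DTR_PBS, against 5.78, 7.56 and 10.9 CPM in WT_PBS. Of its 5024 exon bases, 3450 also belong to Gm49368, a gene on the same strand that was not found in the count table. How reads from there were counted is unknown. Itgb2 had 31.9, 74.1 and 121 CPM in DTR_PBS, against 5.94, 9.69 and 10.6 CPM in WT_PBS. Both sets of libraries were far apart, with log2 changes of 3.64 ± 0.52 for Itgam (adjusted p = 2.34e-05, the smallest of the 33) and 3.14 ± 0.52 for Itgb2 (adjusted p = 6.71e-05).

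The 3 chains of C1q, the recognition molecule of the classical complement pathway that macrophages secrete, rose less than most of the other genes. C1qb had 125, 172 and 251 CPM in DTR_PBS, against 37.8, 56.5 and 70.6 CPM in WT_PBS, a log2 change of 1.74 ± 0.36. C1qa had 104, 126 and 174 CPM in DTR_PBS, against 37.1, 54.2 and 61.9 CPM in WT_PBS, a log2 change of 1.4 ± 0.28, and C1qc rose by 1.44 ± 0.30. The groups did not overlap for any of the 3, and adjusted p was 0.000324 to 0.000475. Their genes lie side by side within 18.7 kb (GRCm38, chr4:136880129-136898803, in the order C1qb, C1qc, C1qa).

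In the phagocyte oxidase, the subunits changed by unequal amounts. Ncf1, the cytosolic organiser of the complex, had 14.3, 26.8 and 43.5 CPM in DTR_PBS, against 3.50, 4.90 and 5.98 CPM in WT_PBS, a log2 change of 2.57 ± 0.42 (adjusted p = 5.66e-05). Cyba, the small membrane subunit, which many cell types express (GENCODE vM21, GRCm38, chr8:122424776-122432930), had 45.6, 73.7 and 106 CPM in DTR_PBS, against 28.0, 41.0 and 52.5 CPM in WT_PBS, a log2 change of 0.93 ± 0.27. Its lowest injured heart lay inside the WT_PBS range, and the rise was the smallest of the 33 genes. Cybb, the catalytic subunit that pairs with Cyba, rose by 2.07, Ncf4, another cytosolic subunit, by 2.45 and Rac2, the GTPase that helps to switch the complex on, by 2.24. Of Ncf1, 408 exon bases overlap Gtf2ird2 on the other strand.

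Genes of lysosomes rose as well. Ctss, the protease cathepsin S, had 45.2, 89.2 and 258.8 CPM in DTR_PBS, against 8.57, 11.9 and 18.5 CPM in WT_PBS, a log2 change of 3.36 ± 0.55 (adjusted p = 6.12e-05). Laptm5, a lysosomal membrane protein of blood cells, had 83.8, 148 and 218 CPM in DTR_PBS, against 23.0, 32.5 and 45.1 CPM in WT_PBS, a log2 change of 2.24 ± 0.40 (adjusted p = 0.000114). Neither gene had overlapping groups. Lyz2, the lysozyme of macrophages, rose by 2.48 ± 0.41 and averaged 523 ± 291 CPM in DTR_PBS and 93.6 ± 9.27 CPM in WT_PBS. Its near copy Lyz1 held 0.499% as many reads over all libraries, and how reads shared by both were counted is unknown.

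The actin-binding and signalling proteins spread widely. Plek (pleckstrin), a substrate of protein kinase C in platelets and white cells, had 11.2, 31.3 and 105 CPM in DTR_PBS, against 1.35, 3.38 and 5.98 CPM in WT_PBS, a log2 change of 3.83 ± 0.57 (adjusted p = 3.08e-05), the second largest of the 33. Aif1 (Iba1), an actin-bundling protein used to stain macrophages and microglia, had 2.88, 5.35 and 15.1 CPM in DTR_PBS, against 1.07, 2.57 and 3.80 CPM in WT_PBS, a log2 change of 1.52 ± 0.41 (adjusted p = 0.00407). DTR_PBS 3 and 5 were inside the WT_PBS range for Aif1. Lcp1 (L-plastin), which bundles actin in white cells, rose by 2.81 and Coro1a (coronin), which binds actin at their edge, by 2.56.

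Genes of white cells in general also rose. Cd53, a tetraspanin, had 8.67, 15.1 and 74.3 CPM in DTR_PBS, against 1.92, 3.93 and 4.87 CPM in WT_PBS, a log2 change of 3.04 ± 0.53 (adjusted p = 9.49e-05). Cd48, a ligand of receptors on natural killer and T cells, had 2.54, 4.09 and 19.6 CPM in DTR_PBS, against 0.857, 1.5 and 2.15 CPM in WT_PBS, a log2 change of 2.32 ± 0.53 (adjusted p = 0.00104). Cd53 was highest in DTR_PBS 1 and 2, at 74.3 and 52.5 CPM, and at 8.67 to 15.5 CPM in the other 4, all above WT_PBS. Ptprc, the phosphatase CD45 of all white cells, rose by 2.58 and Cd52, a small surface glycoprotein, by 2.71.

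**Figure D2:**
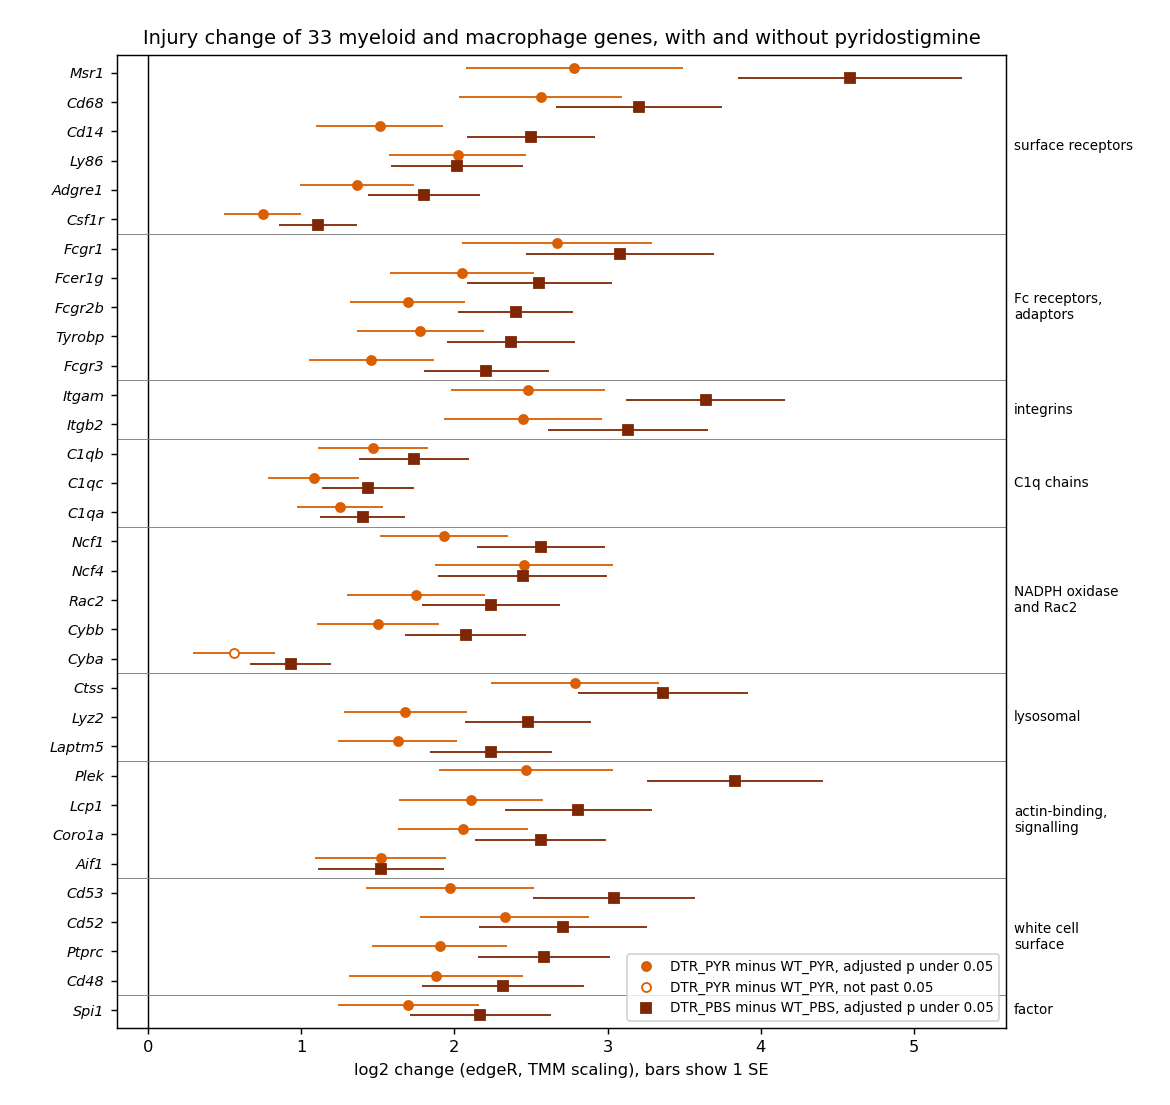
Log2 change with injury of each of the 33 genes, from edgeR on TMM-scaled counts, with bars of 1 SE: DTR_PYR minus WT_PYR (circles) above DTR_PBS minus WT_PBS (squares), ordered by role. All points are right of 0, from 0.56 (Cyba) to 2.79 (Ctss) under pyridostigmine and from 0.93 (Cyba) to 4.58 (Msr1) under PBS, and the open circle is Cyba, the 1 change that did not pass.

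The second comparison, DTR_PYR against WT_PYR, shows injury in animals given pyridostigmine. Here 32 of the 33 genes rose, where 8.06% of all genes rose and 12.2% changed in either direction, and Cyba did not pass (log2 change 0.56 ± 0.27, adjusted p = 0.159). The median log2 change was 1.88, against 0.04 for all genes, and the range ran to 2.79 for Ctss and 2.78 for Msr1. Csf1r passed by the narrowest margin (0.75 ± 0.25, adjusted p = 0.05 when rounded). Only Itgam and Ptprc had every DTR_PYR library above every WT_PYR library, as 2.19% of all genes had, since the 3 low hearts reached into the WT_PYR range for the rest. The summed level was 1699 ± 1494 CPM in DTR_PYR and 554 ± 119 CPM in WT_PYR (n = 6 each), with 635 CPM in the lowest DTR_PYR heart and 750.5 CPM in the highest WT_PYR heart. The count rested on single hearts: without DTR_PYR 2 it was 14 of 33 (4.92% of all genes called in either direction) and without DTR_PYR 1 it was 22 (4.88%), and limma voom called 6 of 33 (5.09% of all genes in either direction). Among hearts with U tags all 33 rose (29.7% of all genes called), and among those with V tags, where 3 of the 4 DTR_PYR hearts are the low ones, none passed (0%) and log2 changes were 0.06 to 1.27. Without DTR_PYR 4, 5 and 6 all 33 rose, Cyba included (1.06, adjusted p = 0.00283), with a median log2 change of 2.55 and 33% of all genes called. These hearts were the 3 lowest of DTR_PYR in 31 of the 33 genes, so larger changes without them follow from that choice. They are no separate support for the rise.

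Values of single members show this split. Msr1 had 22.7, 35.2 and 19.1 CPM in DTR_PYR 1, 2 and 3 and 1.51, 3.59 and 1.76 CPM in DTR_PYR 4, 5 and 6, against 0.146, 1.67 and 3.74 CPM (lowest, median, highest) in WT_PYR. Itgam had 54.7, 125 and 40.2 CPM in DTR_PYR 1 to 3 and 9.61, 11.7 and 13.5 CPM in DTR_PYR 4 to 6, against 4.29, 8.35 and 9.31 CPM in WT_PYR. For Msr1 the low hearts were inside the WT_PYR range, and for Itgam all 3 were just above it. C1qb had 195, 415 and 142 CPM in DTR_PYR 1 to 3 and 59.5, 52.5 and 79.0 CPM in DTR_PYR 4 to 6, against 42.0, 54.1 and 78.8 CPM in WT_PYR. Spi1 had 36.9, 76.6 and 29.6 CPM in DTR_PYR 1 to 3 and 4.86, 8.89 and 10.7 CPM in DTR_PYR 4 to 6, against 5.70, 7.68 and 11.4 CPM in WT_PYR. DTR_PYR 2 was the highest of its group in 31 of the 33 genes, and its C1qb level was above that of every DTR_PBS heart (125 to 251 CPM).

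**Figure D3:**
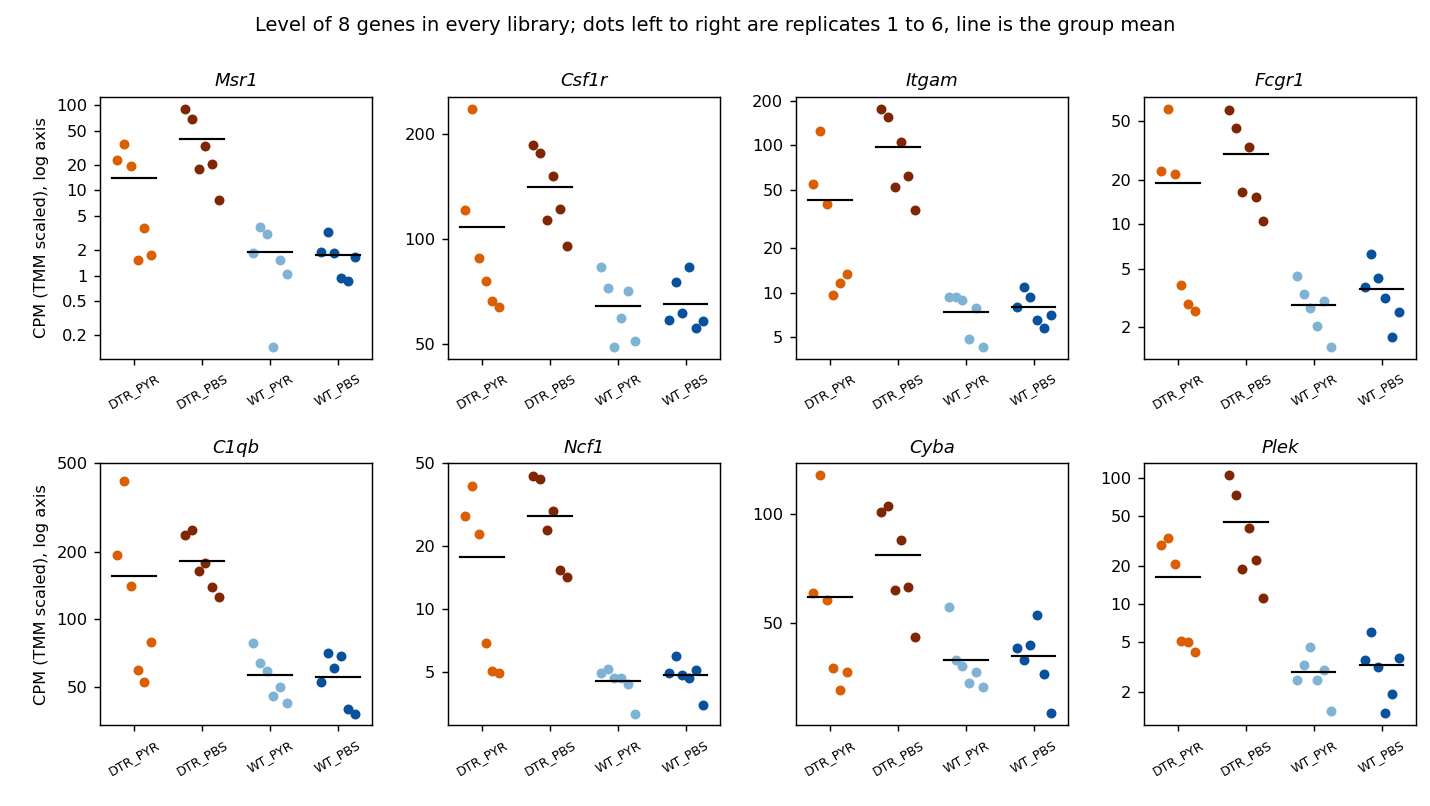
CPM (TMM-scaled, log axis) of 8 genes in every library, by group, with replicates 1 to 6 from left to right and a line at the group mean. In each panel DTR_PYR splits into 3 high and 3 low hearts; for Msr1 they are at 19.1 to 35.2 and 1.51 to 3.59 CPM.

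The order of the genes by size of change was alike in both injury comparisons, which share no library. Across the 33 genes the log2 changes of DTR_PYR minus WT_PYR and of DTR_PBS minus WT_PBS had a Pearson r of 0.894 and a Spearman rho of 0.894, a description over genes that share the same libraries. They were 0.894 and 0.884 without DTR_PYR 4, 5 and 6. The size of the change turned on the 3 low hearts: it was smaller under pyridostigmine in 31 of 33 genes with them and larger in 25 of 33 without them. DTR_PYR 4, 5 and 6 were the 3 lowest of their group in 31 of the 33 genes. Larger changes without these hearts therefore follow from that choice and are no separate result. Per kb of exon, Lyz2, C1qb and C1qa were the 3 most abundant of the 33, in this order, in all 4 groups, with mean levels of 205, 144 and 105 CPM per kb in DTR_PYR, 397, 168 and 129 in DTR_PBS, 63.9, 51.7 and 43.6 in WT_PYR and 71.1, 50.5 and 49.0 in WT_PBS. Csf1r was 12th of 33 per kb in DTR_PYR, 15th in DTR_PBS, 7th in WT_PYR and 8th in WT_PBS, while Ctss was 8th, 4th, 11th and 10th in the same groups. Genes with a higher level per kb in WT_PYR tended to have a smaller log2 change in DTR_PBS minus WT_PBS, with r = -0.492 and rho = -0.374 over 33 genes, a relation that was looked for after the values were seen.

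As a share of the summed CPM of the 33 genes, the C1q chains took less in DTR_PBS than in WT_PBS. Their share was 24.1 ± 3.43% in DTR_PYR, 18.6 ± 4.41% in DTR_PBS, 28.0 ± 0.581% in WT_PYR and 26.6 ± 2.03% in WT_PBS (n = 6 each). Within DTR_PBS it was 12.8% in replicate 1, the heart with the highest summed level, and 24.4% in replicate 6, the heart with the lowest. In DTR_PYR it was 20.9% to 22.1% in replicates 1 to 3, below all WT_PYR hearts (27.1% to 28.9%), and 23.7% to 29.5% in replicates 4 to 6. Csf1r took 7.93 ± 2.78% in DTR_PYR, 5.63 ± 1.1% in DTR_PBS, 11.7 ± 1.8% in WT_PYR and 11.1 ± 1.2% in WT_PBS. Its DTR_PYR mean joins 5.30% to 5.81% in replicates 1 to 3 and 9.05% to 11.9% in replicates 4 to 6, where WT_PYR had 8.67% to 13.6%. The share of Itgam was 2.18 ± 0.53% in DTR_PYR and 3.41 ± 0.62% in DTR_PBS, against 1.32 ± 0.24% in WT_PYR and 1.34 ± 0.21% in WT_PBS, with 2.49% to 2.78% in DTR_PYR 1 to 3 and 1.51% to 1.91% in DTR_PYR 4 to 6. No test was made on these shares.

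**Figure D4:**
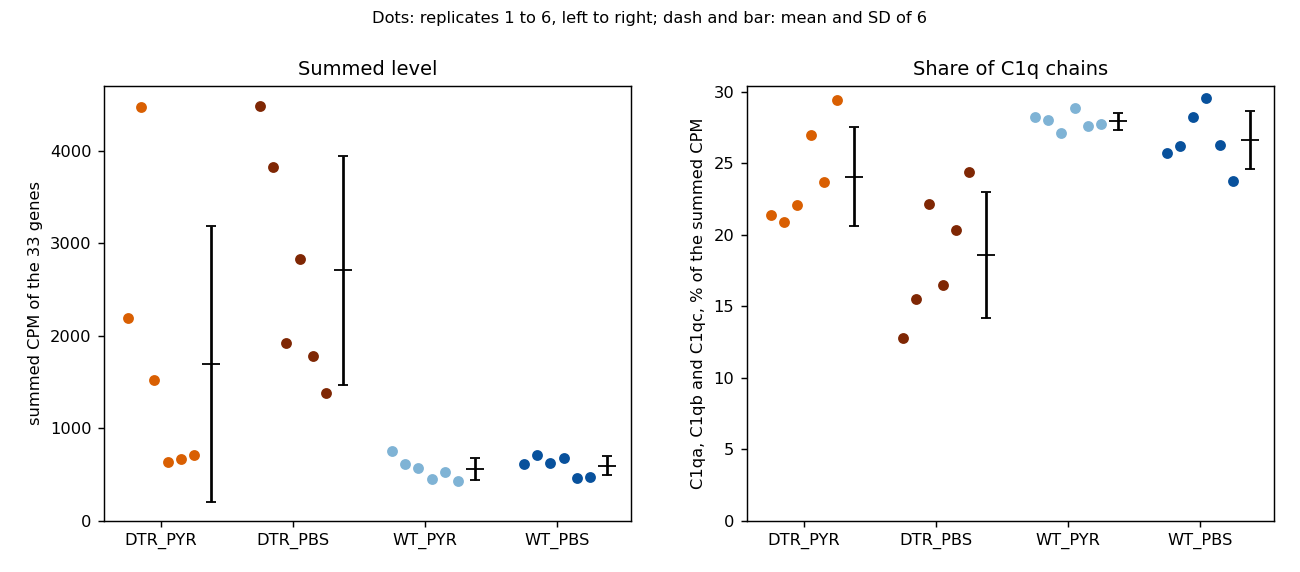
Summed CPM of the 33 genes (left, TMM-scaled) and the share of it taken by C1qa, C1qb and C1qc (right, in percent) in each of 24 libraries, with mean and SD of each group. The summed level is 1385 to 4493 CPM in DTR_PBS and 462 to 711 CPM in WT_PBS, and the C1q share is 12.8% to 24.4% in DTR_PBS and 23.77% to 29.6% in WT_PBS.

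Ratios of genes within a library, which do not depend on scaling, were compared for 7 pairs in 4 contrasts by exact two-sided permutation tests (every arrangement of 6 against 6 libraries). None of the 28 passed after adjustment, 8 had an unadjusted p under 0.05 and the smallest adjusted p was 0.0909. The smallest exact p that 6 against 6 libraries can give is 0.00216, so 1 ratio alone could not pass after adjustment over 28. None passed without DTR_PYR 4, 5 and 6 either, where 3 hearts in DTR_PYR leave fewer arrangements still. The count of 0 therefore does not show that the ratios were unchanged. The catalytic oxidase subunit Cybb relative to its partner Cyba had a geometric mean ratio of 0.340 in DTR_PBS and 0.177 in WT_PBS, and of 0.304 in DTR_PYR and 0.164 in WT_PYR (exact p = 0.0108 and adjusted p = 0.0909 in both). It was 0.329 in DTR_PYR 1 to 3 and 0.281 in DTR_PYR 4 to 6. Fcgr1 to Fcgr3 had a ratio of 0.571 in DTR_PBS and 0.331 in WT_PBS (exact p = 0.0195, adjusted p = 0.0909). The inhibitory to activating pair Fcgr2b to Fcgr3 had 0.802 in DTR_PBS and 0.729 in WT_PBS (exact p = 0.513, adjusted p = 0.756). It had 0.908 in DTR_PYR and 0.656 in WT_PYR (exact p = 0.039, adjusted p = 0.136). Tyrobp to Fcer1g, the 2 adaptors, had 1.02 in DTR_PBS and 1.11 in WT_PBS (exact p = 0.387, adjusted p = 0.638). Higher in DTR_PBS than WT_PBS were also Itgam to Itgb2 (exact p = 0.013), C1qa to Csf1r (0.0152) and Cd14 to Adgre1 (0.0195). C1qa to Csf1r was also higher in DTR_PYR than in WT_PYR (exact p = 0.026).

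The third comparison, DTR_PYR against DTR_PBS, asks what the drug did in injured hearts. None of the 33 genes passed in edgeR, as none of all 15456 genes did (0%), and the smallest adjusted p among the 33 was 0.134. All 33 log2 changes were below 0, with a median of -0.71 against -0.01 for all genes, and 10 had an unadjusted p under 0.05, as did 19.4% of all genes. The 10 were Cd53, Plek, Ptprc, Fcgr2b, Itgam, Msr1, Lyz2, Cd14, Fcgr3 and Adgre1. Cd53 had the largest value, -1.72 ± 0.50 (adjusted p = 0.134), followed by Msr1 at -1.60 ± 0.63 (0.181) and Plek at -1.54 ± 0.52 (0.146), and C1qb the smallest, -0.23 ± 0.35 (0.743). Levels overlapped in all 33 genes: Cd53 had 3.20, 4.56 and 25.2 CPM (lowest, median, highest) in DTR_PYR, against 8.67, 15.1 and 74.3 CPM in DTR_PBS, and C1qb had 52.5, 110.2 and 415 CPM in DTR_PYR, against 125, 172 and 251 CPM in DTR_PBS.

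This comparison turned on which DTR_PYR hearts were kept. DTR_PYR 2 was the highest of the group in 31 of the 33 genes, and DTR_PYR 4, 5 and 6 were the 3 lowest in 31. Shifts on leaving these hearts out follow in part from that. Without DTR_PYR 4, 5 and 6 the median log2 change was 0.02, 17 of 33 changes were above 0 and none passed (0% of all genes). Without DTR_PYR 2, the highest heart, the median was -1.39 and 30 of 33 genes fell, where 15.6% of all genes changed in either direction. Among hearts with V tags alone, where 3 of the 4 DTR_PYR hearts are the low ones, 17 of 33 fell (median -1.53, 4.28% of all genes changed). Among those with U tags, with 2 hearts in each DTR group, none passed (median -0.24). No share of all genes stands beside that count, and so few hearts cannot show that the genes were unchanged. DESeq2 called 0 of the 33 (1.57% of all genes), and limma voom called 19, all lower in DTR_PYR (11.4% of all genes changed).

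**Figure D5:**
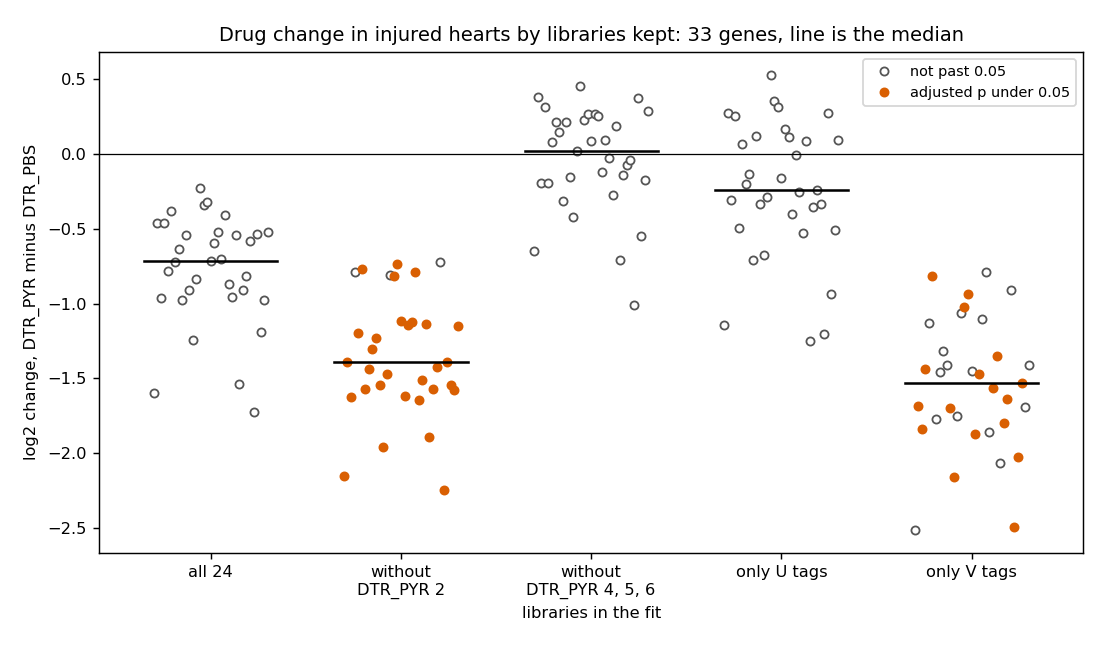
Log2 change of DTR_PYR minus DTR_PBS for each of the 33 genes (dots) with all 24 libraries, without DTR_PYR 2, without DTR_PYR 4, 5 and 6, and with U or V tags alone; filled dots passed an adjusted p of 0.05 and lines are medians. The medians are -0.71, -1.39, 0.02, -0.24 and -1.53 in this order.

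In uninjured hearts, WT_PYR against WT_PBS, none of the 33 genes passed in edgeR (0% of all genes), none had an unadjusted p under 0.05 (3.11% of all genes did), and none was called by DESeq2 or limma voom. The median log2 change was -0.15, between -0.65 ± 0.55 for Cd53 and 0.20 ± 0.75 for Msr1. Summed levels were 554 ± 119 CPM in WT_PYR and 592 ± 103 CPM in WT_PBS. The interaction, which sets the drug change in injured hearts against that in uninjured hearts, likewise had 0 of 33 (0% of all genes) with no unadjusted p under 0.05 (7.96% of all genes), in edgeR, and none in DESeq2 or limma voom. Its median was -0.57, with the most negative value for Msr1 (-1.80 ± 0.98, adjusted p = 0.644). Without DTR_PYR 4, 5 and 6 the median was 0.16 and 25 of 33 values were above 0, from -0.85 (Msr1) to 0.86 (Ncf4), again with none past the threshold. With U tags alone, which leave out the same 3 hearts, 21 of 33 were above 0. Higher values without the lowest hearts of DTR_PYR follow at least in part from leaving them out.

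Genes that work with the 33 were read from lists written by role. Of all genes tested, 21.3% rose and 42.9% changed in either direction in DTR_PBS against WT_PBS. In DTR_PYR against WT_PYR 8.06% rose and 12.2% changed, and 33% changed without DTR_PYR 4, 5 and 6. Of 8 ligands, sister receptors and signalling genes around Csf1r, 6 rose and 1 fell in DTR_PBS against WT_PBS, with the receptor chains Csf2rb (log2 change 3.35), Csf2ra (1.96) and Csf3r (2.69) first by p. Of 13 other Fc receptors and genes of adaptor signalling, 12 rose, among them the inhibitory receptor Pilra (2.91) and the kinase Fgr (4.38), and 1 fell, Fcgrt, the transporter of IgG in endothelium and macrophages (-0.79). Of 5 tested further genes of the oxidase, 2 rose, among them the chaperone Cybc1 (0.57). Of 7 partners of the integrins, 4 rose, among them Itgax (2.85) and the activator Fermt3 (2.32), and 1 fell, the endothelial ligand Icam2 (-0.99). Of 8 partners of CD14 and of the Ly86 protein, 6 rose, among them Cd180 (3.22), Tlr4 (1.51) and Myd88 (0.95). Of 9 tested transcription factors of myeloid cells, 6 rose, among them Runx1 (2.96) and Ikzf1 (2.42), and 1 fell, Gata2, a factor of blood stem, mast and endothelial cells (-0.94). Of 7 tested other receptors for uptake, 4 rose, with the mannose receptor Mrc1 (2.22), Stab1 (1.22) and Axl (0.72) first, and 1 fell, the fatty acid transporter Cd36 (-0.85). In DTR_PYR against WT_PYR the counts that rose in these 7 lists, in the same order, were 3, 9, 0, 3, 2, 5 and 1, and those that fell were 0, 1, 0, 1, 0, 0 and 0. Leaving out the 3 low DTR_PYR hearts, the counts that rose were 5, 12, 2, 5, 4, 7 and 4 and those that fell 0, 1, 0, 1, 0, 0 and 1.

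Markers of some other cells moved with the 33 genes. The share of all genes that rose was 21.3% in DTR_PBS against WT_PBS and 8.06% in DTR_PYR against WT_PYR. Recruited monocyte markers rose in 8 of 9 in DTR_PBS against WT_PBS, with Vcan (log2 change 3.22) and Thbs1 (4.41) first by p. They rose in 6 of 9 in DTR_PYR against WT_PYR (8 of 9 without DTR_PYR 4, 5 and 6). Fibroblast markers rose as well, and which cells of the apex made Vcan, Thbs1 and the other markers of this list was not tested. Their summed level was 146 to 2808 CPM in DTR_PYR, 734 to 3260 CPM in DTR_PBS, 103 to 197 CPM in WT_PYR and 92.5 to 234 CPM in WT_PBS. Resident cardiac macrophage markers rose in 6 of 9 and fell in 1 in DTR_PBS, with F13a1 (1.80) and Mrc1 (2.22) first, and rose in 4 of 9 in DTR_PYR (5 of 9 without the 3 hearts). Their summed level was 332 to 455 CPM in DTR_PYR, 369 to 540.1 CPM in DTR_PBS, 289 to 355 CPM in WT_PYR and 277 to 358 CPM in WT_PBS, a narrower span than that of the monocyte markers.

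Dendritic cell markers rose in 4 of 7 tested and fell in 1 in DTR_PBS, with Flt3 (3.02) and Batf3 (2.04) first, and rose in 1 of 7 in DTR_PYR, with summed levels of 21.0 to 26.1, 18.5 to 28.4, 16.3 to 30.2 and 20.8 to 30.2 CPM in DTR_PYR, DTR_PBS, WT_PYR and WT_PBS. Neutrophil markers rose in 3 of 5 tested in DTR_PBS, with Csf3r (2.69) and Cxcr2 (1.75) first, and in 0 of 5 in DTR_PYR. They summed to 2.16 to 27.2 CPM in DTR_PYR, 10.0 to 30.6 CPM in DTR_PBS, 2.60 to 6.44 CPM in WT_PYR and 3 to 7.59 CPM in WT_PBS, and Ly6g, the marker that defines them in mice, had 4 reads in all 24 libraries. T and NK cell markers rose in 0 of 7 tested in DTR_PBS and in 1, Cd3e, in DTR_PYR (3.27), and summed to 1.73 to 14.5, 4.76 to 13.1, 3.47 to 7.03 and 3.43 to 7.88 CPM in the same 4 groups. B cell markers rose in 2 of 7 tested (Cd22, 1.80, and Blk) and fell in 1 in DTR_PBS, rose in 1 in DTR_PYR, and summed to 13.3 to 24.6, 13.7 to 18.8, 12.1 to 21.9 and 10.1 to 16.8 CPM. No mast cell marker of 5 tested changed in edgeR in either comparison, with sums of 4.68 to 19.6, 10.2 to 15.6, 12.5 to 21.8 and 11.5 to 23.1 CPM. Without DTR_PYR 4, 5 and 6, DTR_PYR against WT_PYR had 3 dendritic, 2 neutrophil, 1 T and NK and 1 B cell marker up, and 1 B and 1 mast cell marker down. There 33% of all genes changed in either direction. The 2 of 7 B cell markers up in DTR_PBS and the counts of 1 of 7 in DTR_PYR lie near the shares of all genes that rose, 21.3% and 8.06%. Several of the 33 genes, such as Ptprc, Cd53, Cd48, Coro1a and Rac2, are known to be expressed in these cells too, and the part of each cell type in their change was not tested.

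Markers of heart tissue were present in all libraries. Of all genes tested, 42.9% changed in either direction in DTR_PBS against WT_PBS, and 21.3% rose. In DTR_PYR against WT_PYR 12.2% changed in either direction and 8.06% rose. Leaving out DTR_PYR 4, 5 and 6, 33% changed in either direction there. The share of genes that fell is not given on its own. Cardiomyocyte markers fell in 6 of 10 in DTR_PBS against WT_PBS, with Myl2 (-1.91) and Ryr2 (-0.89) first, and in 1 of 10, Myl2, in DTR_PYR against WT_PYR (-1.52). They summed to 36205 to 78527 CPM in DTR_PYR, 24931 to 68360 CPM in DTR_PBS, 81594 to 95294 CPM in WT_PYR and 84106 to 88737 CPM in WT_PBS. Fibroblast markers rose in 5 of 8 in DTR_PBS, with Postn (3.04) and Col3a1 (2.91) first, and in 6 of 8 in DTR_PYR, with sums of 1248 to 7192, 2846 to 6766, 746 to 1269 and 850.1 to 1131 CPM in the same groups. Endothelial markers fell in 6 of 8 in DTR_PBS, with Tie1 (-1.10) and Kdr (-1.41) first, and in 4 of 8 in DTR_PYR, with sums of 892 to 1295, 787 to 1052, 1338 to 1799 and 1166 to 1702 CPM. Of 8 red cell and platelet markers, 2 rose, the platelet genes Pf4 (2.18) and Ppbp (2.44), and 4 fell in DTR_PBS, and 1 rose in DTR_PYR, with sums of 73.0 to 126, 39.0 to 246, 41.4 to 406 and 63.3 to 758 CPM. Without DTR_PYR 4, 5 and 6, DTR_PYR against WT_PYR had 5 cardiomyocyte and 6 endothelial markers down and 5 fibroblast and 2 platelet or red cell markers up. The part of these changes in the levels of the 33 genes was not tested. Levels are shares of a library, so a fall of any abundant transcripts raises the share of others. With scaling to total counts the median of all genes in DTR_PBS minus WT_PBS was 0.39, against 0.01 with the scaling used here. The 33 genes all stayed above 0 (1.33 to 5.06). Mitochondrially encoded genes took a mean of 7.13% of reads in DTR_PBS and 14.4% in WT_PBS. Which transcripts moved the median was not tested.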

How the data were processed

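The authors deposited raw read counts per Ensembl gene for the 24 libraries, and a shorter table of the same counts for genes past their own filter. Libraries were unstranded and single-end, per the labels' protocols. Tools listed in the submitters' processing notes are TopHat2 2.1.1, TopHat, Bowtie2, HTSeq, edgeR and DESeq, with build GRCm38. What each tool was used for, and the annotation release, the sources used here do not say. Reads of genes that overlap on opposite strands, and of close copies, cannot be told apart in such counts.

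From the full table, genes over 0.5 CPM in at least 6 libraries were kept, normalised with TMM factors and fitted with edgeR 4.0.16 (glmQLFit, glmQLFTest, R 4.3.3) in 1 fit of 24 libraries with 1 coefficient for each of 4 groups. Each of 5 contrasts was tested two-sided, and calls were made at an adjusted p (Benjamini-Hochberg, over all 15456 genes) under 0.05. The SE of a log2 change is its size divided by the square root of the F statistic. CPM per kb used exon lengths of GENCODE vM21. All 33 genes were to be described, with levels by library (here lowest, median and highest) for the genes of the largest and smallest change of each role in DTR_PBS minus WT_PBS, and with up to 3 called partners and up to 2 called markers per list named by p; some genes that this rule names are not reported here. Gata2, Cd36, Cd3e and Ly6g were named after their values were seen. The 33 genes, the partner and marker lists and the alternatives were chosen with earlier results of these data known, and no test was made of a list as a whole. Each title carries its own animal tag, so a library was taken as 1 animal, and p values measure the spread between these animals. Depth was 1877914 to 37842245 reads per library; the lowest count of any of the 33 genes was 1 read, of Msr1 in WT_PYR 4. The fit was tested on simulated counts. Alternatives used limma 3.58.1 (voom) and DESeq2 1.42.0.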

Additional observations from a re-analysis of the deposited data

Results flagged for a closer look

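In each group of 6 libraries the highest and lowest value of each of the 33 genes was compared with the rest by Dixon's test, 132 groups in all, and 6 were far from the others; chance alone picks about 1 in 20 groups. All 6 were in uninjured hearts. WT_PYR 1 was high for Cyba, at 55.3 CPM where the other 5 had 33.1 to 39.3 CPM, for Ncf4, at 2.52 CPM where the others had 0.985 to 1.37 CPM, and for Coro1a, at 19.3 CPM where the others had 8.51 to 10.7 CPM. WT_PYR 6 was low for Ncf1, at 3.17 CPM where the others had 4.39 to 5.20 CPM. WT_PYR 4 was low for Lcp1, at 11.1 CPM where the others had 22.2 to 33 CPM. WT_PBS 6 was low for Cd52, at 2.03 CPM where the others had 4.28 to 6.63 CPM. No value in an injured group stood out by this test. It compares 1 end value with its nearest neighbour, so it cannot flag hearts that lie apart together, as DTR_PYR 4, 5 and 6 did.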

How the results depend on the processing

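The count of 33 genes up in DTR_PBS minus WT_PBS was 30 to 33 in 10 other settings (other scalings, tools and filters, the tag series as a term, U or V tags alone, without DTR_PYR 4, 5 and 6) and 33 in each of 24 fits that left out 1 library; V tags alone lost Aif1, Cyba and Cd48. In DTR_PYR minus WT_PYR it was 32 in the fit reported, 6 with limma voom, 0 with V tags alone, 33 with U tags alone, and 14 to 32 when 1 library was left out. In DTR_PYR minus DTR_PBS it was 0 in the fit reported, 19 lower with limma voom, 17 lower with V tags alone, and 0 to 30 when 1 library was left out. Why limma voom and edgeR differ was not tested. The counts for WT_PYR minus WT_PBS, for the interaction and for the ratios were 0 in every setting and 0 to 0 when 1 library was left out, but the signs of the uncalled interaction values were mostly above 0 without DTR_PYR 4, 5 and 6 (25 of 33) and with U tags alone (21 of 33). No called change of the 33 genes turned to the other direction in any of these settings. Mean summed levels moved by less than 1 SD with scaling to total counts. No paired analysis was made. Replicate numbers follow the order of the samples, and the labels tie no animal of one group to an animal of another. Some animal tags run on between groups, but what the tags mark is unknown. With the tag series as a term DTR_PYR minus DTR_PBS again had 0 of 33. Tags that start with 2 and end in U occurred only in WT groups, so the tag series is partly mixed with injury. Lists, shares and changes across genes without DTR_PYR 4, 5 and 6 were added after seeing the data. Depth limits the lowest genes most: Msr1, Cd48, Aif1, Ly86, Fcgr1, Ncf4 and Plek had under 10 reads in at least 1 library.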
